A study of Mus musculus with 20 samples.

Results

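The cytosolic ribosome is built from a large and a small subunit, each made of ribosomal RNA and a set of ribosomal proteins. Many of the proteins' mRNAs begin with a run of pyrimidines at the 5′ end, the TOP motif, through which mTOR and the RNA-binding protein LARP1 control their translation. Several free ribosomal proteins, RPL5 and RPL11 above all, also bind and inhibit MDM2, the ubiquitin ligase of p53. The genes examined here were all protein-coding genes of the deposited table whose mouse symbol has the form of a cytosolic ribosomal protein (Rpl or Rps followed by a digit, Rplp0 to Rplp2, and Rpsa), leaving out the Rps6 kinases, pseudogene symbols and Rps27l. The rule gave 83 of the 20636 genes in the table, 50 of the large and 33 of the small subunit. It uses names alone and no measured value. It misses Fau and Rack1, which also encode ribosomal proteins, and it takes in Rps19bp1, which encodes a protein that binds RPS19, and the paralogues Rpl3l, Rpl7l1, Rpl22l1, Rpl36al and Rps27rt.

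RNA came from whole pancreatic ductal adenocarcinomas of mice aged until morbidity. All mice carried Ptf1aCreER, a tamoxifen-inducible Cre in acinar cells, with a Cre-activated tdTomato reporter at Rosa26. They received 5 mg of tamoxifen a day for 3 days by gavage at 8 to 10 weeks of age. KPT mice were in addition homozygous for floxed Trp53, which encodes p53. KAT mice were homozygous for the floxed Cdkn2a-Arf allele, whose ARF product inhibits MDM2, and KPAT mice for both. Each group holds 5 tumours. The labels number them separately but do not say that they came from separate animals, so p-values measure the spread between these samples. The series also holds KT tumours, which are not analysed here. The library numbers of the 3 groups lie in separate ranges and the labels name no batch, so a processing batch and the genotype cannot be told apart.

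Values are deposited normalized read counts, in which 1 unit stands for about 19.478 reads. The libraries held 14696138 to 26248484 reads assigned to genes. The floxed gene Trp53 was at 22.7 to 26.3 in KPT, 32.9 to 57.2 in KPAT and 98.99 to 148 in KAT, without overlap, while Cdkn2a was at 216 to 335, 268 to 907 and 150.0 to 689.9. Which exons are floxed is not in the labels, so these gene totals are no direct check of recombination. Reads of a ribosomal RNA gene list made up 1.58% of KPT 3, 3.16% of KAT 2 and 1.09% of KPAT 5, and at most 0.458% of the other tumours.

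Start-site windows were searched for runs of pyrimidines, the letters that make up the TOP motif. Windows from 10 bases before to 20 after an annotated start were read from RefSeq promoters of GRCm38.p6, which hold 74 windows for 63 of the 83 genes. A C followed by at least 5 pyrimidines (C or T, gene strand, whole within the window) was found in 37 of the 74 windows, 50%, against 21.96% of the 32777 windows of other genes. The run could lie anywhere in the window, so a TOP motif at the first base of the mRNA was not tested. The 8 windows printed here belong to members that the results turn on. Capitals mark the pyrimidine run, and windows without capitals hold none. Rpl15, Rpl14 and Rpl13a, with runs of 17, 14 and 14 bases, and Rpl4, with none, are members that did not pass in either comparison with KPT. Rps27, Rplp2 and Rpl12, with runs of 9, 9 and 6 bases, and Rps28, with none, were lower in both. These 8 do not stand for run length in general. Rpl27a, named here because its run of 20 bases is the longest, was lower in both, and Rpl35, with 18, in neither. The values of Rpl13a and Rpl35 are uncertain, as described below.
Rpl15, chr14:18270967-18270996, minus strand: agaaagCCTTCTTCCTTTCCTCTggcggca
Rpl14, chr9:120571507-120571536, plus strand: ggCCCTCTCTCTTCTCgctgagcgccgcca
Rpl13a, chr7:45128726-45128755, minus strand: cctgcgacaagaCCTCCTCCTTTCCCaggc
Rpl4, chr9:64173377-64173406, plus strand: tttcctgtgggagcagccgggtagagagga
Rps27, chr3:90213629-90213658, minus strand: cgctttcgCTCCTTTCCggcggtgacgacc
Rplp2, chr7:141447641-141447670, plus strand: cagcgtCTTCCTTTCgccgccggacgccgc
Rpl12, chr2:32961702-32961731, plus strand: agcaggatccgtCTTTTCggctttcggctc
Rps28, chr17:33824543-33824572, minus strand: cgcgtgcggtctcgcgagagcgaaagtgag

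Of other start-site letters, CCGGAAG and AAGATGGC were also more frequent than in other genes, while TATAAA, in 1 of the 74 windows, was less frequent. CCGGAAG, the core letters bound by ETS factors, was found on either strand in 33.8% of the members' promoter windows (250 bases before to 50 after the start) and in 8.8% of the others. AAGATGGC, the core bound by YY1, was found on either strand in 10.8% against 2.73%. TATAAA within 50 bases before the start was present in 1.35% against 2.63%. A match is a description of the letters and not a binding site. Members with the pyrimidine run and members without it gave similar counts in these tumours: of 35 tested members with a run, 27 were lower in KPAT and 29 in KAT against KPT, and of 27 without one, 18 and 21. The median log2 fold change was -0.65 with and -0.61 without a run in KPAT against KPT, and -0.76 and -0.67 in KAT against KPT.

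Together the ribosomal protein genes took a larger share of the reads in KPT than in either group with a floxed Cdkn2a-Arf allele. Their share was 7.29%, 7.66%, 6.02%, 5.95% and 6.69% in KPT tumours 1 to 5. In KAT it was 4.85%, 4.15%, 4.58%, 4.25% and 4.13%, and in KPAT 5.08%, 4.01%, 4.27%, 4.91% and 4.17%. Every KPT tumour lay above every KAT and KPAT tumour, and the ranges of KAT and KPAT overlapped. In whole tumours, fewer cells of a type rich in these mRNAs and less mRNA per cell cannot be told apart.

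**Figure D1:**
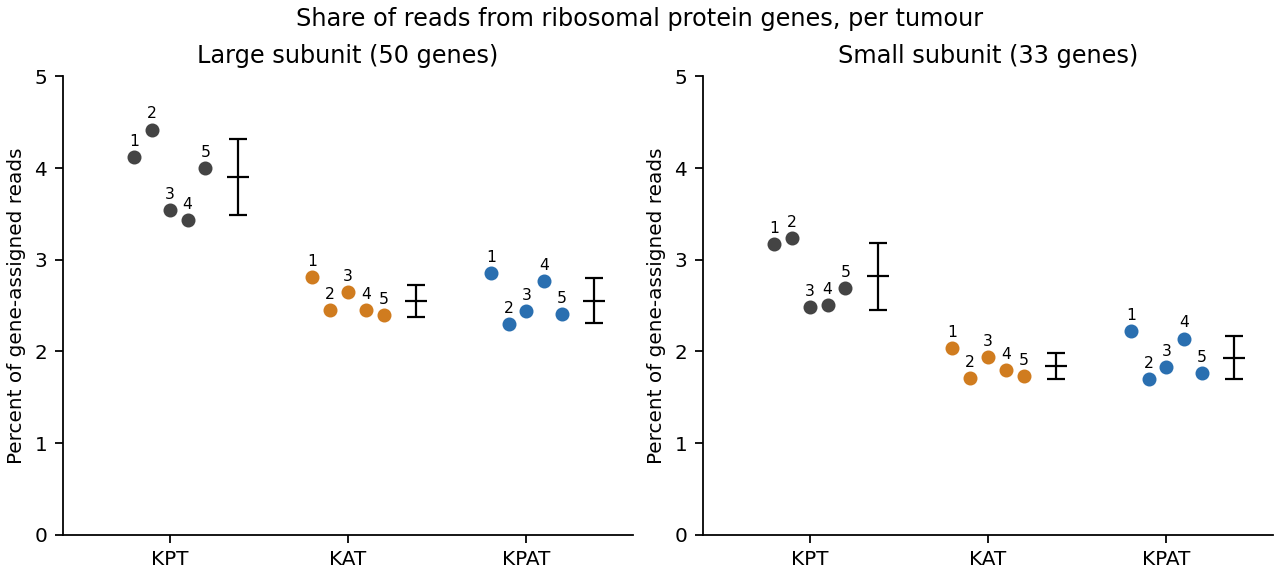
Share of gene-assigned reads (percent, axis from 0) that came from large subunit genes (left) and small subunit genes (right) in each tumour. Points are tumours with their replicate number and bars are mean ± SD over 5 tumours. All 5 KPT tumours lie above all KAT and KPAT tumours in both panels.

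Both subunits showed the same order. The large subunit genes held 3.9 ± 0.411% of reads in KPT tumours, 2.55 ± 0.173% in KAT and 2.55 ± 0.241% in KPAT (SD, n = 5). The small subunit genes held 2.82 ± 0.363%, 1.84 ± 0.144% and 1.93 ± 0.234%. The ratio of large to small subunit reads ran from 1.29 to 1.49 over the 15 tumours, and the groups overlapped in it. KPT was also the group with the most spread: the median coefficient of variation of the members was 21.1% in KPT tumours, 9.05% in KAT and 12.2% in KPAT, beside 27.9%, 21.6% and 24.01% for all genes tested. The highest value among the 15 tumours lay in KPT 1 for 36 members and in KPT 2 for 37, and the lowest in KAT 5 for 39.

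KPAT against KPT asks what the floxed Cdkn2a-Arf allele adds where Trp53 is floxed already. Of the 82 members that passed the minimum level, 61 were lower in KPAT, none was higher and 21 did not pass (limma, adjusted p below 0.05 over 16648 genes). That is 74.4% of the members, where 7.4% of all genes tested were lower and 9.13% higher. The large subunit gave 35 of 49 and the small subunit 26 of 33. The median log2 fold change of the members was -0.65, a level 0.636 times that of KPT, beside 0.02 for all genes. For 48 members every KPAT tumour lay below every KPT tumour, as it did for 4.93% of all genes. For no member was the order the reverse, which 5.03% of all genes showed. With other tools, edgeR on the recovered reads called 63 members and 7.26% of all genes lower, and DESeq2 65 members and 11.4%. Neither called a member higher, beside 9.0% of all genes with edgeR and 11.8% with DESeq2.

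KAT against KPT sets the floxed Cdkn2a-Arf locus, with Trp53 intact, against floxed Trp53. Here 68 of 82 members were lower in KAT, none was higher and 14 did not pass, beside 13.3% of all genes lower and 15.6% higher. Among large subunit genes 38 of 49 fell and among small subunit genes 30 of 33. The median log2 fold change was -0.76 (0.591 times KPT), beside 0.03 for all genes. All KAT tumours were below all KPT tumours for 65 members, against 8.38% of all genes, and above them for none, against 9.24%. edgeR called 71 members lower (12.7% of all genes) and DESeq2 72 (16.8%), and none higher (15.4% and 17.5% of all genes). The KPT tumours serve in both comparisons, so the counts are not independent of each other. Rpl3l, the heart and skeletal muscle form of Rpl3, was the 1 member under the minimum level, at 0 to 0.824 units in all 15 tumours.

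**Figure D2:**
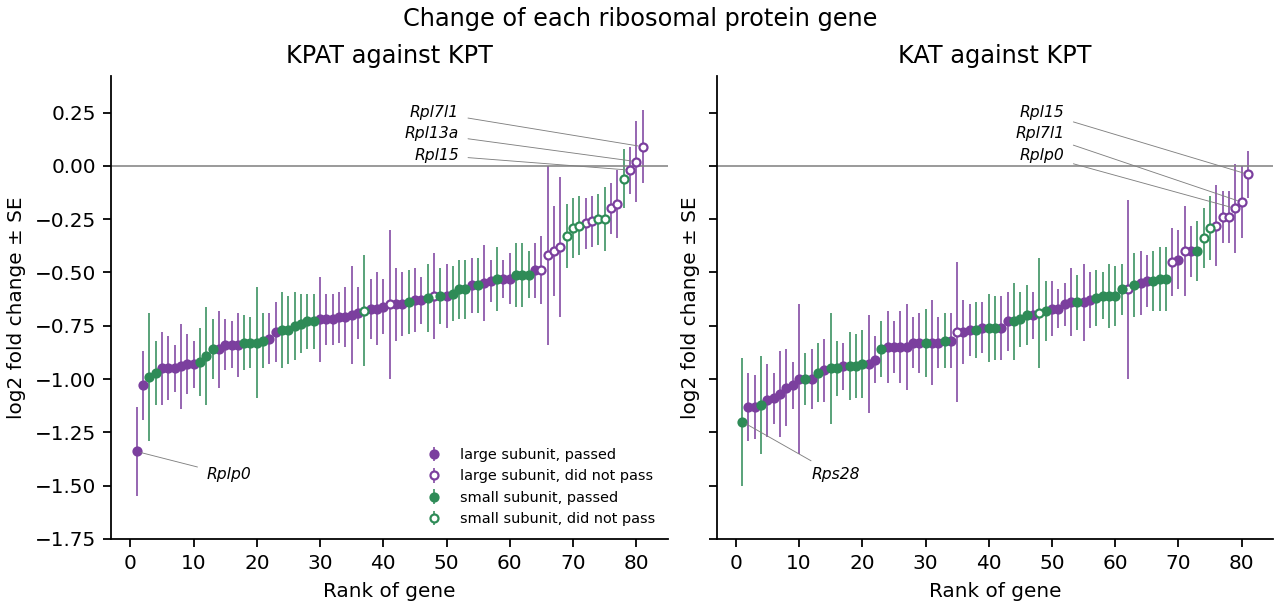
Log2 fold change ± SE (limma) of each ribosomal protein gene, ranked, for KPAT against KPT (left) and KAT against KPT (right), with 5 tumours per group. Filled points passed at adjusted p 0.05. Rpl29, at 2.24 and 2.52 with SE 1.20, lies outside the axis and is left out, and nearly all other points lie below 0 in both panels.

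KPAT against KAT asks what floxed Trp53 adds where the Cdkn2a-Arf locus is floxed. No member passed, beside 0.012% of all genes lower and 0.036% higher by limma. At an unadjusted p below 0.05 there were 3 members, Rplp0, Rps3a1 and Rps19bp1. edgeR called no member (0.00601% of all genes lower, 0.036% higher) and DESeq2 called Rplp0 alone (1.12% of all genes lower, 0.589% higher). Rplp0 was also the 1 member with every KPAT tumour below every KAT tumour, as were 1.3% of all genes. For no member were all above, beside 1.42% of all genes. The median log2 fold change was 0.11, with 71 of 82 members positive, and the members ranged from -1.15 (Rplp0) to 0.40 (Rpl35).

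**Figure D3:**
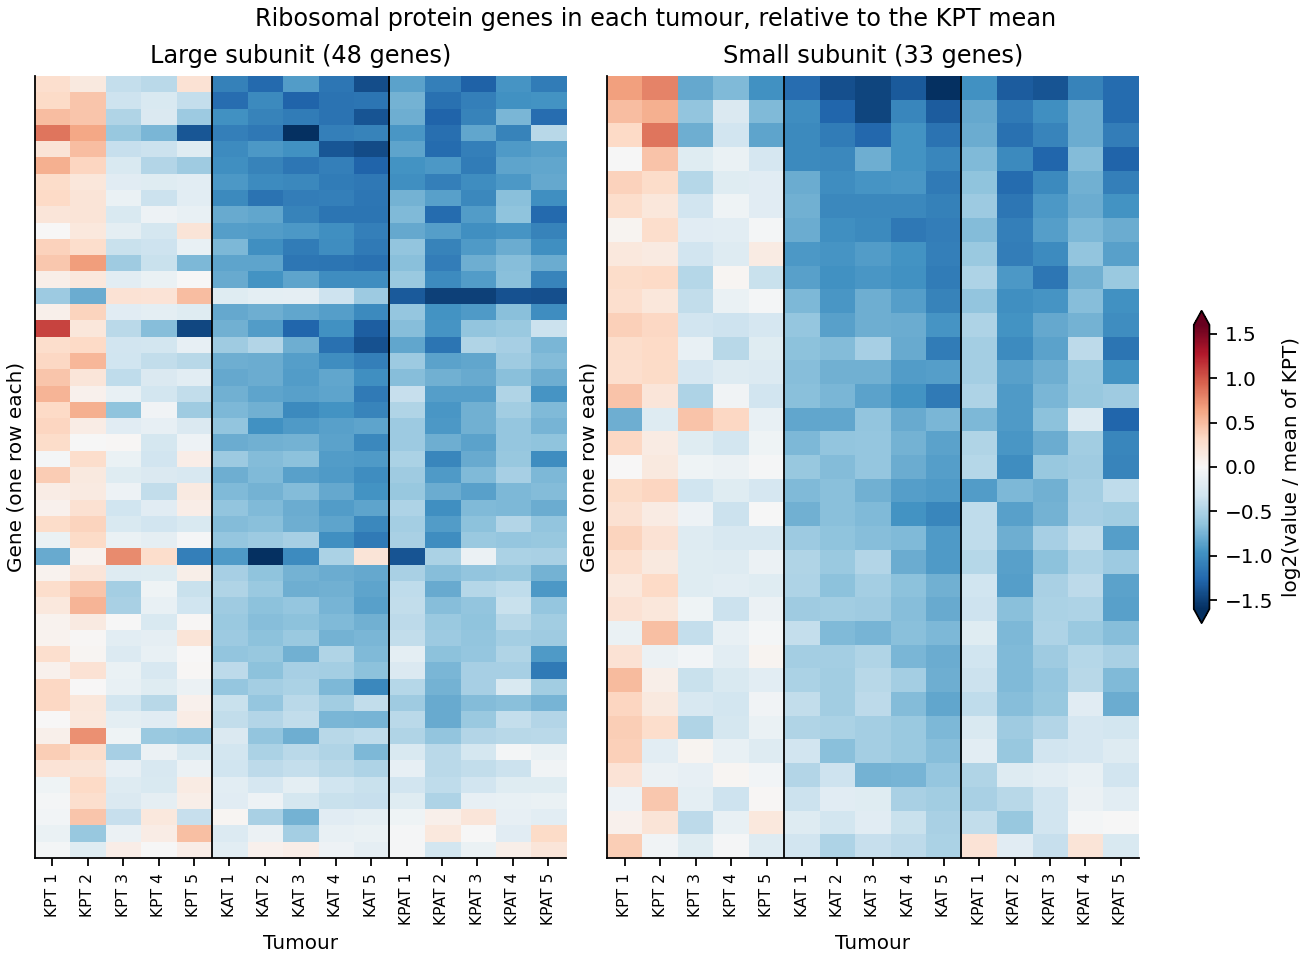
Each tested ribosomal protein gene except Rpl29 (rows, large subunit left and small subunit right) in each tumour (columns), as the log2 ratio of its value to the KPT mean. Blue is below and red above that mean, and genes are ordered by their mean over KAT and KPAT. KPT 1 and KPT 2 are red in most rows, and KAT and KPAT are blue in most rows.

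A list of 7 members whose products are reported to bind MDM2 fell about as far as the members as a whole. All 7 were lower in KPAT and in KAT against KPT, where 74.4% and 82.9% of all tested members were lower. Their median log2 fold changes were -0.66 and -0.78, beside -0.65 and -0.76 for all tested members. Rpl5 encodes the large subunit protein that carries 5S ribosomal RNA with RPL11. Its values were 1398, 1554, 1241, 1141 and 1606 in KPT, 752, 745, 736, 703 and 650.2 in KAT, and 785, 753, 701, 721 and 659 in KPAT. Every KPT tumour stood above every other tumour, and KAT and KPAT overlapped. The log2 fold change of Rpl5 was -0.93 (SE 0.11, limma adjusted p = 0.00113) in KPAT and -0.94 (SE 0.11, adjusted p = 0.000168) in KAT against KPT. Rpl11, its partner in the 5S particle, was at 1079, 905, 711, 697 and 683 in KPT, 474, 499, 448, 436 and 409.9 in KAT, and 549.8, 436, 499, 564 and 496 in KPAT. Again no KPT tumour overlapped with the others (log2 fold changes -0.66 and -0.82, limma adjusted p = 0.00645 and 0.000745).

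**Figure D4:**
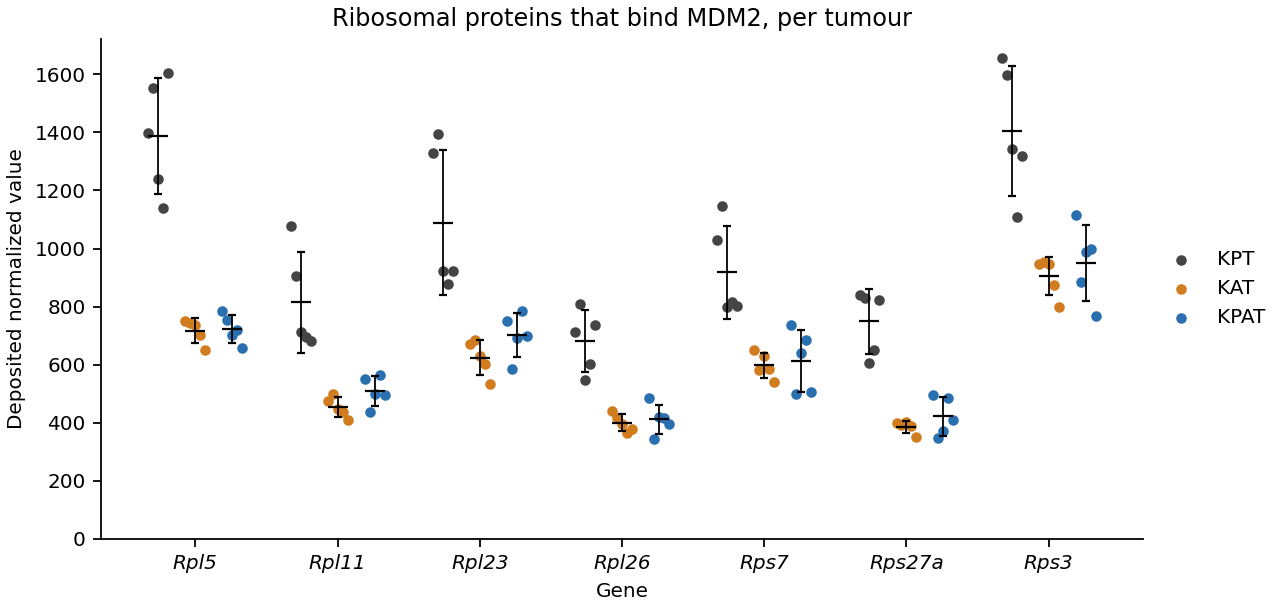
Deposited normalized values (axis from 0) of the 7 listed ribosomal protein genes whose products are reported to bind MDM2. Points are tumours, and bars are mean ± SD over 5 tumours. The KPT tumours lie above the KAT tumours for each gene, and above the KPAT tumours for each gene except Rps3.

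Among the other listed MDM2 binders, Rpl23 was at 1088 ± 250.3 in KPT tumours, 624 ± 60.5 in KAT and 701 ± 75.9 in KPAT (SD, n = 5). Rpl26, whose product also binds the Trp53 mRNA, was at 682 ± 106, 399.8 ± 29.5 and 412 ± 51.04. Rps7 was at 918 ± 159.8, 598 ± 43.5 and 613 ± 107. Rps27a, which encodes a ubiquitin fused to a small subunit protein, was at 750.1 ± 112, 386 ± 20.05 and 422 ± 66.8. Their log2 fold changes ran from -0.83 to -0.58 in KPAT and from -0.95 to -0.61 in KAT against KPT. Rps3, which forms part of the mRNA entry site, was at 1656, 1599, 1343, 1109 and 1318 in KPT, and 1116, 886, 987, 997 and 768 in KPAT. These ranges overlapped by 1 tumour on each side (log2 fold change -0.56, limma adjusted p = 0.0132), and the call ended at adjusted p = 0.0518 when KPT 3, KAT 2 and KPAT 5 were left out together. In KAT, Rps3 was at 800.3 to 955, below all KPT tumours (-0.62, limma adjusted p = 0.00393).

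The stalk, a flexible arm of the large subunit that recruits translation factors, consists of RPLP0, RPLP1 and RPLP2 and is anchored next to RPL12. Rplp2 was at 1474, 1426, 751, 899 and 703 in KPT, 538, 501, 483, 463 and 403 in KAT, and 610.3, 432, 500.1, 633 and 452 in KPAT. KPT 1 and KPT 2 held about the same high level and all KPT tumours stayed above the rest (log2 fold changes -0.94 in KPAT and -1.07 in KAT, limma adjusted p = 0.00861 and 0.00194). Rpl12 was at 1430 ± 196 in KPT tumours, 850.1 ± 151 in KAT and 908 ± 109.8 in KPAT, with log2 fold changes of -0.65 and -0.76 for KPAT and KAT against KPT (limma adjusted p = 0.00969 and 0.00212). Rplp1 was at 1707, 1567, 894, 1211 and 1090 in KPT, 1056, 912, 956, 926 and 787 in KAT, and 1097, 959, 1064, 1263 and 1207 in KPAT. Only KPT 1 and KPT 2 stood above all other tumours for Rplp1, which did not pass (log2 fold changes -0.18 and -0.45, limma adjusted p = 0.485 and 0.0533).

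Rplp0, the base of the stalk, gave the lowest log2 fold change of any member in KPAT against KPT, and it has pseudogene copies that share much of its sequence. Whether reads were divided between them was not tested. It was at 1343, 1163, 2375, 2355 and 2839 in KPT, 1761, 1813, 1826, 1596 and 1351 in KAT, and 793, 714, 716, 766 and 762 in KPAT. By these values KPAT was lower than KPT (log2 fold change -1.34, SE 0.21, limma adjusted p = 0.00248), while KAT against KPT was -0.20 (adjusted p = 0.512) and KPAT against KAT -1.15 (adjusted p = 0.0602). The last of these passed without KPT 2 (adjusted p = 0.0237), without KPT 5 (0.0431), in a limma fit of the 2 groups alone (0.002) and by DESeq2 (2.3e-05).

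The processed pseudogene Gm8730 on chromosome 8 shares 62.8% of its 31-base words with Rplp0. Gm8730 was at 1423, 1398, 6.37, 286 and 475 in KPT, 3.61, 4.17, 4.02, 3.18 and 2.25 in KAT, and 1010, 859, 871, 1021 and 890.4 in KPAT. The tumours with Gm8730 at 859 or more, KPT 1, KPT 2 and all of KPAT, were those with the lowest Rplp0. Gm9625, another copy, was at 162 to 300.1 in KPT 1, KPT 2 and all KPAT tumours and at 0.261 to 2.45 in the rest. With all 4 copies added, Rplp0 came to 3070, 2837, 2382, 2642 and 3317 in KPT, 1765, 1817, 1830, 1600 and 1353 in KAT, and 1995, 1746, 1758, 1952 and 1832 in KPAT. On these sums no KPT tumour overlapped with another group. The log2 fold changes became -0.61 in KPAT (SE 0.13, limma adjusted p = 0.00828) and -0.77 in KAT (SE 0.13, adjusted p = 0.00101) against KPT, and 0.16 for KPAT against KAT (adjusted p = 0.69). The summed values of Rplp0 thus lay beside the medians of the members, -0.65, -0.76 and 0.11.

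**Figure D5:**
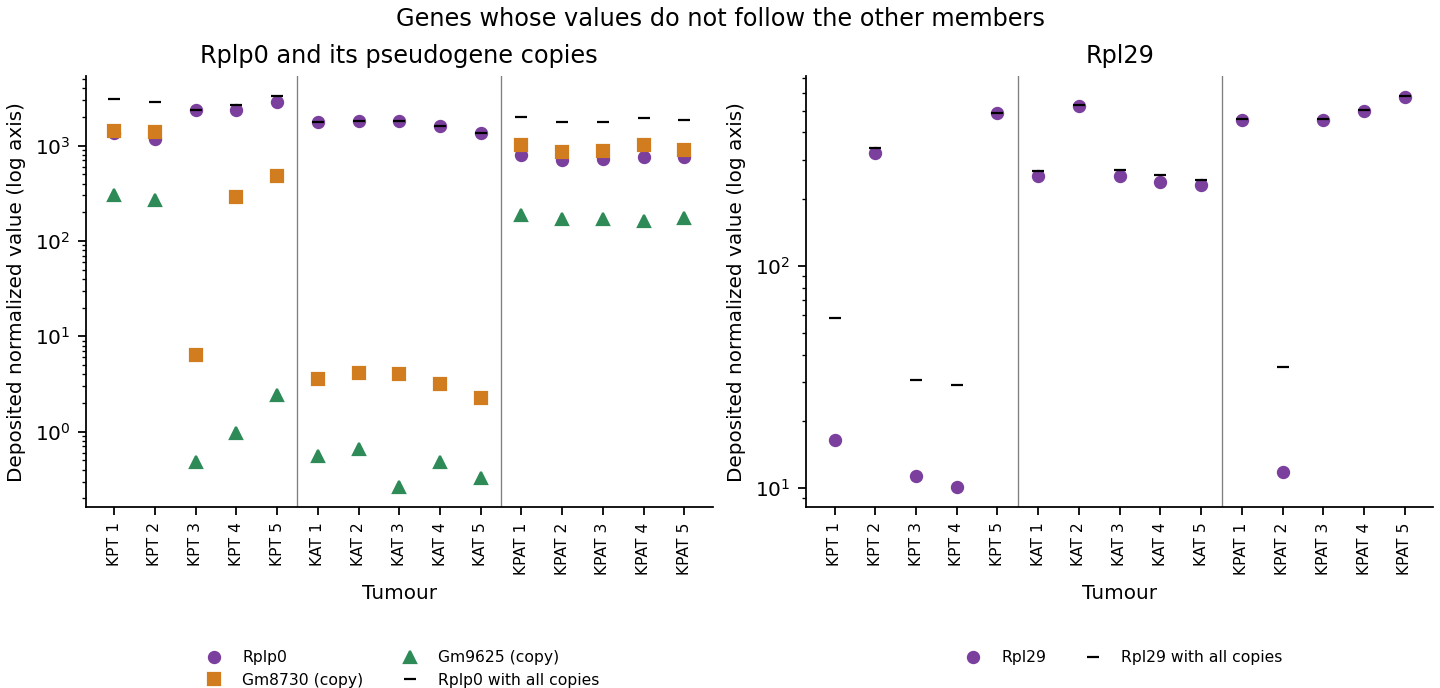
Deposited normalized values (log axis) per tumour of Rplp0, its processed pseudogene copies Gm8730 and Gm9625 and the sum with all 4 copies (left), and of Rpl29 alone and with its 7 copies (right). The sum for Rplp0 is at least 2382 in each KPT tumour and at most 1995 in all others, while Rpl29 alone lies at 10.1 to 16.5 in KPT 1, KPT 3, KPT 4 and KPAT 2.

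Another member whose calls moved when its copies were added was Rps3a1. This small subunit protein gene was at 1229, 899, 822, 923 and 816 in KPT, 761, 664, 724, 699.7 and 660.5 in KAT, and 1088, 824, 725, 1085 and 789.7 in KPAT. KPAT overlapped with both groups and did not pass against KPT (-0.06, limma adjusted p = 0.813). KAT passed narrowly (-0.40, limma adjusted p = 0.0466) and lost the call in 15 of 30 alternatives (adjusted p up to 0.221), leaving out any 1 of 9 single libraries among them, all 5 of KAT included. Copies gave 24.8% of the reads of the summed gene. The sum was lower in both (-0.71 with adjusted p = 0.00548 in KPAT, -0.79 with adjusted p = 0.00113 in KAT, limma). Over all members, adding 247 pseudogene copies to the 70 genes that have any gave 62 lower members in KPAT and 71 in KAT against KPT. The copies alone held 0.133 to 0.332% of reads in KPT tumours, 0.0524 to 0.0675% in KAT and 0.149 to 0.177% in KPAT.

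Genes with little shared sequence gave the same direction. Of 5 members with under 20% of their 31-base words in other genes, 4 were lower in KPAT and 5 in KAT against KPT, with medians of -0.62 and -0.83. Rpl8, a large subunit protein gene, was chosen from them after its values were seen. It was at 1781, 1448, 1476, 1203 and 1376 in KPT, 839, 854, 859, 804 and 712 in KAT, and 973, 846, 803, 949.6 and 933 in KPAT. No KPT tumour overlapped with the others, and the log2 fold changes were -0.69 and -0.83 (limma adjusted p = 0.00325 and 0.000359). At the other end, of 20 members with at least 80% shared words, 14 were lower in KPAT and 17 in KAT, with medians of -0.64 and -0.69.

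Rpl29, a large subunit protein gene, lay at levels that followed no group. It was at 16.5, 323, 11.4, 10.1 and 486 in KPT, 254, 525, 253, 239.9 and 231 in KAT, and 454, 11.8, 453, 499 and 578 in KPAT. KPT 1, KPT 3, KPT 4 and KPAT 2 formed a low set, and the other tumours were at least 231. Its log2 fold changes, 2.24 and 2.52 (SE 1.20 each), did not pass (limma adjusted p = 0.212 and 0.127). Without KPT 5 the KAT value passed at 3.34 (limma adjusted p = 0.0431), the 1 fit in which a member was higher. With its 7 copies added, the low tumours came to 29.1 to 58.5 and the others to at least 244, so the gap between the sets remained. The members' share of reads without Rplp0 and Rpl29 was 5.71 to 7.52% in KPT tumours, 3.93 to 4.64% in KAT and 3.93 to 4.95% in KPAT.

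Other named members with large falls came from both subunits. Rpl19, of the large subunit, was at 366 to 650.0 in KPT tumours, 197 to 235 in KAT and 209 to 282 in KPAT (-0.95 and -1.13, limma adjusted p = 0.00281 and 0.000326). Rpl36 had log2 fold changes of -0.95 and -1.10 (limma adjusted p = 0.00388 and 0.000579), with KPT at 507 to 925 and the other tumours at 243 to 365.

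Of the small subunit, Rps28 was at 942, 1041, 341, 367 and 305 in KPT, 257, 226, 217, 235 and 197 in KAT, and 306, 239, 229.6, 285 and 255 in KPAT. KPT 1 and KPT 2 were far above the other KPT tumours, and KPT 5 was level with KPAT 1. The log2 fold change of Rps28 was -0.99 in KPAT (SE 0.30, limma adjusted p = 0.0343) and -1.20 in KAT (SE 0.30, adjusted p = 0.00845). The KPAT call ended without KPT 1, KPT 2, KPAT 2, KPAT 3 or KPAT 5 (limma adjusted p up to 0.0829).

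A few members did not pass and had log2 fold changes close to 0. Rpl15, a large subunit protein gene, was at 421, 377, 463, 429 and 464 in KPT, 384, 451, 465, 408 and 389.9 in KAT, and 427, 353, 401, 461 and 492 in KPAT. The 3 groups covered the same range, with log2 fold changes of -0.02 and -0.04 (SE 0.11 each, limma adjusted p = 0.926 and 0.817). These turned to values from 0.00 to 0.06 under scalings to totals without ribosomal protein genes and to library totals. Added to its 5 copies, Rpl15 was at 488 to 591 in KPT tumours, 396 to 476 in KAT and 423 to 503 in KPAT, with log2 fold changes of -0.18 (limma adjusted p = 0.18) and -0.29 (adjusted p = 0.0279). Rpl14 (log2 fold changes -0.20 and -0.24) and Rpl4 (-0.27 and -0.24), both of the large subunit, did not pass in either comparison with KPT. Copies gave 0.159% of the summed reads of Rpl14 and 0.0425% of those of Rpl4.

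To ask which members departed from the rest, the mean of the members was subtracted in each tumour and the fit repeated. Relative to that mean, 12 members were lower and 11 higher in KPAT against KPT, and 13 lower and 7 higher in KAT against KPT, with none in KPAT against KAT. In the same fits 1.03% and 1.23% of all genes were lower and 47.9% and 56.6% higher than the members' mean. In KPAT against KAT, 0.024% were lower and 0.0601% higher. Rpl15 lay above the mean by 0.57 in KPAT (SE 0.15, limma adjusted p = 0.00794) and 0.65 in KAT (SE 0.15, adjusted p = 0.00278). Rpl14 lay above it by 0.39 and 0.44 (limma adjusted p = 0.0097 and 0.00372). Both genes kept their calls in all 18 alternatives to this fit, summing with copies included. Most others did not, and the counts in KPAT fell to 5 lower without KPAT 5 and 6 without KPAT 3, and to 6 higher without KPT 1, KPAT 3 or KPAT 5 and 7 without KPAT 2. In KAT the lower count was 8 without KPT 1, KAT 2, KAT 3 or KAT 5. Against the median of the members in place of their mean, 1 member was lower in KPAT, and in KAT 4 were lower and 14 higher.

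Shorter members had lower median log2 fold changes. The 41 members with a coding length up to 454 bases had median log2 fold changes of -0.71 in KPAT and -0.83 in KAT against KPT, and the 41 longer ones -0.61 and -0.64. Spearman's rho between coding length and log2 fold change over the 82 members was 0.239 in KPAT and 0.442 in KAT, as a description over genes that share libraries. With a correction for exon length and GC content 58 and 66 members remained lower, with medians of -0.60 and -0.67. Per kilobase of coding sequence, Rpl41, which encodes the smallest of the proteins, had the highest mean level of the members in KPT, 8911 units, followed by Rplp1 at 3782 and Rps29 at 3760. Rpl41, Rps29 and, in the next paragraph, Rpl24 were chosen after their values were seen.

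Not every listed value is a measure of its gene. Rpl24 was at 0.329 to 1.78 units in all tumours, although every ribosome is known to hold the protein, and 47.0% of its exon bases overlap another gene on the same strand. Rpl13a, at 8.35 to 19.1, overlaps one over 35.4% of its exon bases, and Rpl35 and Rpl23a overlap genes of the opposite strand over 66.2% and 59.7%. The sources used here do not say whether strand was counted. Rpl23a passed in KAT against KPT (-1.0, limma adjusted p = 0.0423) but lost the call in 15 of 30 alternatives (adjusted p up to 0.105), and Rpl13a and Rpl35 passed in no comparison. These 4 are uncertain.

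The 9 genes listed as partners of paralogues, or of Rps19bp1, were Rpl3, Rpl7, Rpl10, Rpl22, Rpl36a, Rpl39, Rps4x, Rps27 and Rps19. All were lower in KPAT and in KAT against KPT, where 74.4% and 82.9% of all tested members were lower. The median log2 fold changes of these 9 were -0.71 and -0.70. Rps27 was at 546, 754, 481, 511 and 457 in KPT, 271, 268, 321, 284 and 267 in KAT, and 336, 272, 228, 341 and 227 in KPAT. The KPT tumours were all above the others (-0.97 and -0.94, limma adjusted p = 0.00235 and 0.000748). The call of Rpl39 in KPAT (-0.55, limma adjusted p = 0.0449) ended in 14 of 30 alternatives, among them without KPT 1, KPT 2, KPT 4, any KAT tumour except KAT 1, KPAT 2, KPAT 3 or KPAT 5 (up to 0.108). That of Rpl3 in KAT (-0.44, limma adjusted p = 0.0283) ended in 7, among them without KPT 1, KPT 2, KPT 5, KAT 2 or KAT 4 (up to 0.0683).

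Of the paralogues among the members, Rpl36al, a paralogue of Rpl36a, was lower in both (-0.56 and -0.63, limma adjusted p = 0.012 and 0.00305). Rpl36al shares 24.5% of its exon bases with another gene on the same strand. Rpl22l1, which can replace Rpl22, was at 26.9, 42.5, 24.4, 16.95 and 16.6 in KPT tumours, 14.9 to 21.7 in KAT and 16.4 to 18.9 in KPAT. Its log2 fold change was -0.40 in each comparison and did not pass (limma adjusted p = 0.208 and 0.168). Rpl7l1 was at 53.7 to 114 in KPT tumours, 56.3 to 76.98 in KAT and 72.3 to 101 in KPAT, and did not pass (0.09 and -0.17, limma adjusted p = 0.74 and 0.468). Rps27rt, which shares 92.7% of its 31-base words with other genes, was at 2.07 to 6.85 units and is uncertain. Rps19bp1, which is not one of these paralogues, was lower in KAT (-0.58, limma adjusted p = 0.00339) and did not pass in KPAT (-0.25, adjusted p = 0.165). Outside the rule, the transcribed pseudogene Rps4l was at 2.85 to 60.01 in KPT and 24.5 to 74.7 in KPAT, and was higher in KPAT (2.22, SE 0.63, limma adjusted p = 0.0266). That call ended in 9 of 30 alternatives, among them the omission of KPAT 3, KPAT 4, KPAT 5, KPT 1, KPT 3 or KPT 5 alone (up to 0.116), and KAT against KPT did not pass (1.68, adjusted p = 0.0567). Also outside it, Rps27l, which encodes a p53-induced paralogue of RPS27, was at 49.3 to 69.4 in KPT tumours, 58.9 to 72.1 in KAT and 55.4 to 73.9 in KPAT and did not pass (0.18 and 0.19, limma adjusted p = 0.275 and 0.201).

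Of the ribosomal proteins outside the name rule, Fau, which encodes a ubiquitin-like protein fused to RPS30, was at 1058 ± 304 in KPT tumours, 549.9 ± 82.9 in KAT and 575 ± 80.6 in KPAT (SD, n = 5). It was lower in both comparisons (-0.85 and -0.91, limma adjusted p = 0.0083 and 0.00243), as was Rack1, a scaffold on the small subunit (-0.49 and -0.55, limma adjusted p = 0.0127 and 0.00336).

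Lists of other genes of the translation system gave different counts, to be read beside the 7.4% of all genes lower in KPAT and 13.3% lower in KAT against KPT. The shares of all genes higher were 9.13% and 15.6%. Of 19 translation factor and other TOP genes, 11 were lower in KPAT and 15 in KAT against KPT, none was higher, and the medians were -0.42 and -0.55. Eif3h and Eif3k, subunits of the initiation factor eIF3, had log2 fold changes of -0.75 and -0.76 in KPAT (limma adjusted p = 0.0019 and 0.00543). Of 77 mitochondrial ribosomal protein genes, which serve a separate ribosome, 20 were lower in KPAT and 38 in KAT, none higher, with medians of -0.25 and -0.41. The ribosome assembly and RNA polymerase I list, 28 genes, had 5 lower and 2 higher in KPAT and 11 lower in KAT, with medians of -0.02 and -0.38. The 2 higher genes are no larger a share than that of all genes higher in KPAT. In KPAT, Ncl (nucleolin) was lower (-0.69, limma adjusted p = 0.00344), and Bop1, a large subunit assembly factor, was higher (0.47, adjusted p = 0.0189, and 0.0629 without KPT 3, KAT 2 and KPAT 5). Polr1b, a subunit of RNA polymerase I, was also higher in KPAT (0.47, limma adjusted p = 0.0275), a call that ended without KPT 1, KPT 2, KPAT 3 or KPAT 5 (up to 0.0774). Of 16 MYC and mTOR regulators, only Eif4ebp1, an mTOR target that represses cap-dependent translation, passed. It was lower in both (-0.81 and -0.95, limma adjusted p = 0.018 and 0.00425).

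Lists of cell type markers gave counts to be read beside those of all genes tested. Of all genes, 7.4% were lower and 9.13% higher in KPAT, and 13.3% lower and 15.6% higher in KAT against KPT. The ductal and lymphocyte counts in KPAT were near those shares. Of 10 fibroblast markers 7 were higher in KPAT and 10 in KAT against KPT, with a summed level of 1003 to 4202 units in KPT tumours, 6786 to 9832 in KAT and 5335 to 14185 in KPAT. The Thy1 call in KPAT held in 21 of 30 alternatives (limma adjusted p up to 0.165). In KAT, Fap held in 24, Thy1 in 26 and Pdgfra in 28 of 30, and the other fibroblast calls held in all 30. Of 10 macrophage markers 5 and 7 were higher, with sums of 804 to 1416, 1813 to 3291 and 1042 to 2054. In KPAT 4 of these 5 calls (Csf1r, C1qb, C1qc and Lyz2) ended on omission of KPAT 1, KPAT 2, KPAT 3, KPT 1, KPT 2 or KPT 4, and that of Fcgr1 held in all 30 alternatives. Of 10 ductal epithelium markers, 1 was lower and 1 higher in KPAT and 4 were lower in KAT, with sums of 12447 to 20265 in KPT tumours, 9890 to 13188 in KAT and 12178 to 15380 in KPAT, so the labelled tissue's markers were present throughout. Both KPAT calls (Epcam and Spp1) ended without KPT 1, KPT 3, KPAT 2 or KPAT 5, and those of Krt19 and Cdh1 in KAT without KAT 3. Of 9 intestine markers 3 were lower in each comparison, with sums of 1149 to 4938, 390.3 to 2883 and 428 to 1332. All 3 KAT calls (Cdx2, Muc3 and Lgals4) ended with edgeR (highest adjusted p over the alternatives 0.142, 0.551 and 0.208). Of 8 endothelial markers 3 were higher in each, and the KPAT calls (Kdr, Tek and Eng) all ended without KPAT 2 and with the replicate block. Of 9 lymphocyte markers 1 was higher in KPAT (Ptprc, held in 12 of 30 alternatives) and 2 in KAT (Ptprc, held in 30 of 30, and Ms4a1, in 17 of 29). The median log2 fold change of the lymphocyte list was -0.92 in KPAT and 1.65 in KAT. In KPAT, Ptprc thus went against most of its list. Acinar markers summed to 19.3 to 1062 units over the 15 tumours and none passed. No defining marker of the fibroblast, macrophage or ductal list was at 0. Their part in the ribosomal protein counts was not tested. Without KPT 3, KAT 2 and KPAT 5, the tumours with most ribosomal RNA reads, 53 members were lower in KPAT and 67 in KAT against KPT.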

How the data were processed

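Per the labels' protocols, tumour RNA went into TruSeq libraries for the HiSeq4000. The submitters' processing notes name the aligner HISAT2 2.0.4 and the builds mm10 and GRCm38. How reads were counted, with which annotation and strand setting, and how they were normalized is not given in the sources used here. For each gene and sample, the authors deposited a normalized signal, and from its steps each value is a read count divided by a factor of the library. Whole reads were recovered from the steps between values, with 100% of the values within 0.01 of a whole number, and 0 value columns were left unmapped to a sample. The libraries held 14696138 to 26248484 reads, and intervals from them would cover counting error only. Values were multiplied by 19.478 reads per unit, because the tests had been planned for values on a read scale. Genes with a mean of at least 10 such reads over the 15 libraries (16648 of 20636) were tested as log2(value + 1) with limma 3.58.1, with one fit over the 3 groups and Benjamini-Hochberg adjustment at 0.05. Fold changes are on that scale, which understates those of low genes. The 5 KT samples were left out. A symbol was matched by gene ID for 20574 genes. Pseudogene copies were genes annotated as pseudogenes that share at least 20% of their 31-base words with a member. Copies of another annotated type were not added. One of these was the protein-coding Gm10073, which holds 72.5% of the 31-base words of Rplp1.

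Alternatives were edgeR 4.0.16 and DESeq2 1.42.0 on the recovered reads, other scalings, pseudocounts of 0.5 and 8, no minimum or a minimum of 50, the compared groups alone, a replicate block, an exon length and GC correction, sums with copies, and leaving out libraries. The scaling to library totals, and the replicate block in the fit relative to the members' mean, were chosen after seeing the data. The named genes are those of the MDM2 binder, stalk, paralogue and partner lists, the 5 members with the largest and the 5 with the smallest log2 fold change in each comparison, any member called against the common direction, and up to 4 called genes of each other list. The members and lists were chosen with earlier results of these data known. The fits were tested on simulated data. Some genes, and one allele that all groups carry, are not reported here. R 4.3.3, Python 3.11.15, numpy 2.4.6, pandas 2.3.3 and matplotlib 3.10.9 were used.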

Additional observations from a re-analysis of the deposited data

Results flagged for a closer look

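In 126 groups of 5 tumours, over 42 named members and summed levels, 9 had 1 tumour set apart from the other 4 by more than Dixon's criterion, 7.14% of the groups, where chance sets apart about 1 in 20. Of these, 4 were in KPAT 2. There, Rpl12 was at 717 (the others 933 to 1002), Rpl14 at 536 (659 to 702), Rpl22l1 at 16.4 (18.2 to 18.9) and Rpl29 at 11.8 (453 to 578). Rpl29 was also apart in KAT 2, at 525 with the other KAT tumours at 231 to 254. In KPT 2, Rpl12 stood at 1772, above 1300 to 1416. In KPT 1, Rps3a1 stood at 1229, above 816 to 923. In KAT 3, Rpl23a was at 15.7, below 25.4 to 26.6. In KAT 5, Rps27a was at 352, below 388 to 402.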

How the results depend on the processing

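The members' median log2 fold change kept its sign in every alternative run. Leaving out libraries in turn gave -0.71 to -0.57 in KPAT and -0.8 to -0.67 in KAT against KPT, and 0.06 to 0.15 in KPAT against KAT. The count of lower members in KPAT against KPT was lowest, at 50, without KPAT 2. Of the lower members, 47 of 61 in KPAT and 65 of 68 in KAT were called in all 30 alternatives. With the replicate block, 60 and 67 members were lower and none differed between KPAT and KAT, and relative to the members' mean 10 were lower in KPAT. Same-numbered tumours did not pair: 5 of 15 pairs correlated above 0.1 (-0.209 to 0.246), and 3 of 15 libraries correlated best with their own number. Scaled to library totals, the medians were -0.60 and -0.66.

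With libraries left out in turn, KAT against KPT had 0 to 1 higher members (Rpl29) and KPAT against KAT 0 to 1 lower (Rplp0), a call also made with only the compared groups (1) and DESeq2 (1). Relative to the members' mean, KPAT had 5 to 12 lower and 6 to 11 higher, and KAT 8 to 14 lower. Against their median, KPAT had 1 lower, and KAT 4 lower and 14 higher.

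The cause of the changes of sign was not tested. In KPAT against KPT, Rpl13a was -0.03 without KPT 3, KAT 2 and KPAT 5, 0.00 by edgeR and -0.02 by DESeq2. Rpl15 was 0.00 with totals without ribosomal protein genes and 0.04 with library totals. With the length and GC correction Rplp1 was 0.09 and Rps3a1 0.08. Ranges with 1 library left out were -0.07 to 0.13 for Rpl13a, -0.07 to 0.05 for Rpl15, -0.05 to 0.22 for Rpl7l1 and -0.13 to 0.04 for Rps3a1. In KAT against KPT, Rpl15 was 0.02 with totals without ribosomal protein genes, 0.06 with library totals and 0.02 with the length and GC correction. In KPAT against KAT, Rpl10 was 0.03 and Rps19 0.05 without the 3 libraries, Rpl29 0.40 by edgeR and 0.41 by DESeq2, and Rplp0 0.16 with copies. Leave-one-out ranges there were -0.17 to 0.05 for Rpl10, -0.61 to 0.79 for Rpl29 and -0.11 to 0.03 for Rps19.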
